A study of Homo sapiens with 2 samples.

Results

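The cells described here are the histone-high cells of CHLA9 and TC71, a pair of Ewing sarcoma lines, which are the cells with the largest share of transcripts from the main histone gene cluster. Ewing sarcoma is a tumour of bone and soft tissue that is driven by a fusion of EWSR1 with an ETS gene, and both lines are established cultures. Each line was grown untreated in its own medium, CHLA9 in IMDM and TC71 in RPMI-1640, both with fetal bovine serum and with more of it for CHLA9. Each gave 1 droplet library with 3' chemistry from 10X Genomics, in which each captured transcript carries a unique molecular identifier (UMI). A library stands for 1 culture, so line, medium and library cannot be told apart, and cells of 1 library are not replicates. A barcode counted as a cell where it had 5000 UMIs or more and 2000 genes or more, with no more than 15% of the UMIs from mitochondrial genes. Within each library, the kept cells were then ranked by the UMIs of all genes whose symbol starts with HIST1H as a share of all UMIs, and the top 10% were taken. This gave 452 of 4524 CHLA9 cells and 172 of 1729 TC71 cells, or 624 of 6253 in all. The other 4072 and 1557 kept cells of the same libraries served for comparison.

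Replication-dependent histones package newly copied DNA, and their genes are switched on together while DNA is synthesised. Their messengers are unusual in that they have no introns and end in a short stem-loop in place of a poly(A) tail, which is bound by SLBP. When replication ends they are degraded quickly, so a cell rich in them is taken to be copying its DNA. Replication-independent variants, such as H2AFZ and H3F3B, are made from ordinary polyadenylated messengers through the whole cycle. A 3' library is primed with oligo(dT), so a histone messenger without a tail can be captured through stretches of A within it or through tailed forms.

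The libraries held 178489774 UMIs in CHLA9 and 75408445 in TC71, of which the kept cells held 174975302 and 58355173. Only 20.4% of the TC71 barcodes were kept, against 89.1% in CHLA9. The libraries had 16 barcode sequences in common, of which 3 were kept in both and none was histone-high. The kept cells carried the Ewing sarcoma surface marker CD99, at 1099 and 1149 counts per 1000000 (CPM) in the histone-high and other cells of CHLA9 and at 421 and 400.1 in TC71. The CPM of a gene is its summed UMIs per 1000000 of the UMIs of all genes not starting with HIST, since the rule itself raises the histones. Where 2 CPM values of a line stand side by side, the first is of the histone-high and the second of the other cells. Sentences that compare other groups name them. Genes of other cell types, 11 in all, summed to 12.36 and 12.04 CPM in CHLA9, and to 10.9 and 11.7 in TC71, and none of the 11 reached 20 CPM.

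The stem-loop is what the messengers of the ranked genes have in common, so it is shown first, with its 16 bases in capitals and with 5 bases on either side where the annotation holds them. The sequences are from GENCODE 44 transcripts, with T for U. They are the main H4 gene HIST1H4C (current symbol H4C3, chr6:26104312-26104337, plus strand), the linker histone gene HIST1H1B (H1-5, chr6:27866792-27866817, minus strand), HIST1H2AC (H2AC6, chr6:26124664-26124689, plus strand), and, from chromosome 1 and outside the rule, HIST2H2AC (H2AC20, chr1:149887386-149887411, plus strand) and HIST3H2A (H2AC25, chr1:228457364-228457389, minus strand).
HIST1H4C: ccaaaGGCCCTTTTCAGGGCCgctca
HIST1H1B: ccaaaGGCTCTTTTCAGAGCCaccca
HIST1H2AC: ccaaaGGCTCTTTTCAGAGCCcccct
HIST2H2AC: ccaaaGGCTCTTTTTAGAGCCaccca
HIST3H2A: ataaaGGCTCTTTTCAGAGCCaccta

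A transcript of GENCODE 44 was found for 66 of the 71 HIST genes of the count table, and 65 of them held the stem-loop, in 10 versions. The commonest version, that of HIST1H1B, was in 35 genes, and that of HIST1H4C in 10. HIST1H4C stood apart in another respect, which matters for a library primed with oligo(dT). Just ahead of its stem-loop it holds 18 A in a window of 20 bases, shown here in capitals (chr6:26104286-26104315, plus strand, in the 3' untranslated region).
HIST1H4C: acttcAAAAAACAAAAACAAAAAAAcccaa
In the stem-loop form of no other HIST gene did a window of 20 bases hold more than 13 A. The value was 12 in HIST1H1B, HIST1H1C and HIST1H1E and 13 in HIST1H1D, whose coding regions are rich in lysine codons. It was also 13 in HIST1H1A and 12 in HIST1H1T. Over the 46 HIST1H core histone genes with a transcript other than HIST1H4C it lay between 8 and 13, with a median of 10. HIST1H4C also gave 72.2% of the HIST1H UMIs of the histone-high cells of CHLA9 and 73.7% in TC71, and in the other cells 70.3% and 70.9%. The 6 H1 genes gave 21.9% and 19.1% in the histone-high cells. The levels of histone genes below therefore compare cells, not genes with each other, and the part of A stretches in those levels was not tested.

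The promoters of the H1 genes show what else these genes have in common. The bases just before the start of transcription are given for 3 of them (RefSeq, GRCh38.p14: H1-5 at chr6:27867589-27867713, minus strand, for HIST1H1B; H1-2 at chr6:26056471-26056595, minus strand, for HIST1H1C; H1-4 at chr6:26156204-26156328, plus strand, for HIST1H1E). In capitals are AAACACA, known as the H1 box, CCAAT and the TATA letters TATATA or TATAAA, on either strand.
H1-5: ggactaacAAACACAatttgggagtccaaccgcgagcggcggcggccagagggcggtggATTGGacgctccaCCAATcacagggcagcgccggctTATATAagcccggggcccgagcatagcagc
H1-2: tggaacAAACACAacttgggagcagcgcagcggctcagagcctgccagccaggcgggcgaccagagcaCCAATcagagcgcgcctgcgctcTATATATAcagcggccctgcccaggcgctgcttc
H1-4: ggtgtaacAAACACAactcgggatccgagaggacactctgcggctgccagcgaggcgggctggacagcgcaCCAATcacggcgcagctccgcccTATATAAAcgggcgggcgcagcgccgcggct
AAACACA stood in the 250 bases before the start in 6 of 6 promoters of HIST1H1 genes. It was in 0 of 46 promoters of the other HIST1H genes, against 4.82% of all 35116 promoters. These 46 belong to 42 of the 49 other HIST1H genes, and no promoter was found for HIST1H4C. CCAAT was in 6 of 6 and in 39 of 46 (84.8%), against 32.0% of all promoters. The TATA letters were in the last 50 bases in 6 of 6 and in 29 of 46 (63.0%), against 4.30% of all promoters. These matches are a description of letters and show no binding.

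The share that chose the cells was a continuous quantity. In CHLA9, the histone-high cells had a median HIST1H share of 0.611% of their UMIs, with a range of 0.548% to 0.908%, and the other cells a median of 0.0455%. In TC71 the median was 0.451%, with a range of 0.409% to 0.686%, and that of the other cells 0.0748%. At the threshold, the third cell inside stood at 0.548% and the third outside at 0.547% in CHLA9, and at 0.411% and 0.408% in TC71. A share of 50% of the lowest one inside was reached by 1573 CHLA9 cells (34.8% of the kept cells) and by 641 TC71 cells (37.1%). The histone-high cells are thus the top of a larger histone-rich group, and they held 29.1% of the HIST1H UMIs of CHLA9 and 27.4% of those of TC71. A median of 15 HIST1H genes was detected per histone-high cell of CHLA9 and of 11 in TC71, against 7 and 6 in the other cells. HIST1H4C alone gave a median of 176 UMIs per histone-high cell in CHLA9 and 122.5 in TC71, against 9 and 14.

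**Figure D1:**
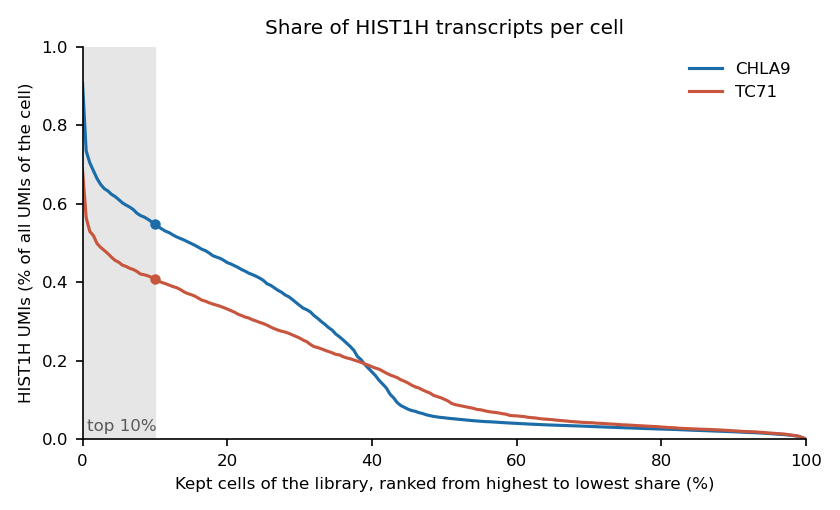
HIST1H UMIs as a percent of all UMIs of a cell (y axis) for the kept cells of each library ranked from the highest to the lowest share (x axis, percent of the kept cells). The grey band is the top 10% and each point the threshold, at 0.548% in CHLA9 and 0.409% in TC71. Both curves fall without a step at the threshold.

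The histone-high cells had more UMIs than the other cells, while genes at equal depth and mitochondrial percent differed less. Among the other cells, the HIST1H share had a Spearman rho with total UMIs of 0.41 in CHLA9 and 0.18 in TC71. The histone-high cells had a median of 38874 UMIs in CHLA9 and 35432 in TC71, against 33936 and 33022 in the other cells. At 5000 UMIs per cell, a median of 2307 genes was detected in the histone-high cells of CHLA9 and of 2286 in the others, with 2155.5 and 2133 in TC71. The median mitochondrial percent was 7.53 against 7.59 in CHLA9 and 9.54 against 9.03 in TC71. No doublet caller was run, and the highest total of a histone-high cell was 104710 UMIs in CHLA9 and 57676 in TC71, below the 177168 and 88563 of the other cells.

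The histone genes themselves are given as a description, since most of them made the ranking. The main H4 gene HIST1H4C stood at 4508 and 1229 CPM in CHLA9, a log2 ratio of histone-high over other cells of 1.88 (95% counting interval 1.86 to 1.89). In TC71 it stood at 3443 and 1018 CPM, a log2 ratio of 1.76 (1.73 to 1.78). These intervals, like all others here, cover the counting of UMIs only and not the spread between cultures. The linker histone genes, whose products bind between nucleosomes, had log2 ratios of the same order. HIST1H1B was at 527 and 124 CPM in CHLA9, with a ratio of 2.08 (2.05 to 2.12), and at 40.0 and 6.99 in TC71, with 2.52 (2.27 to 2.75). HIST1H1C had ratios of 1.79 and 1.78, HIST1H1D of 2.01 and 1.84, and HIST1H1E of 1.82 and 1.85, in CHLA9 and TC71. The lines used these genes unequally. HIST1H1D was at 386 and 96.0 CPM in CHLA9 and 82.3 and 23.0 in TC71, whereas HIST1H1C was at 247 and 71.3 and at 432 and 126.

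By class, the summed log2 ratio in CHLA9 was 1.96 for the 6 H1 genes, 1.87 for H4, 1.34 for H2A, 1.27 for H3 and 0.80 for H2B. In TC71 it was 1.84, 1.75, 1.06, 1.43 and 0.64. The H2B class, lowest in both, holds genes that stood at nearly the same level in histone-high and other cells. HIST1H2BD was at 7.46 and 7.62 CPM in CHLA9 and at 8.59 and 10.5 in TC71, with ratios of -0.03 (-0.30 to 0.23) and -0.29 (-0.73 to 0.12). HIST1H2BN had a ratio of -0.02 in CHLA9 and 0.57 in TC71, and HIST1H2BJ of 0.31 and -0.09. HIST1H2AC, whose stem-loop is shown above, had a ratio of 0.53 (0.38 to 0.68) and 0.59 (0.40 to 0.77). Near-identical copies, such as HIST2H4A and HIST2H4B or HIST2H2AA3 and HIST2H2AA4, share reads, and their single values are uncertain and not given.

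The genes with small ratios mostly had annotated forms other than the short stem-loop form, a grouping chosen after the values were seen. Such a form either ends over 100 bases past the loop or lacks it. Of the HIST1H genes with at least 200 UMIs in CHLA9, 27 had stem-loop forms alone, with a median log2 ratio of 1.484 and 4 of them under 1. The other 9 also had another form, with a median of 0.57 and 7 under 1. In TC71, the 9 genes with stem-loop forms alone had a median of 1.76 and none under 1, and the 7 with another form a median of 0.59 and 6 under 1. HIST1H4H, with another form, was an exception at 1.42 and 1.66, and of the 4 with stem-loop forms alone that were under 1 in CHLA9, HIST1H2BG was at -0.14, HIST1H2BK at 0.42, HIST1H2BH at 0.53 and HIST1H2AI at 0.80.

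**Figure D2:**
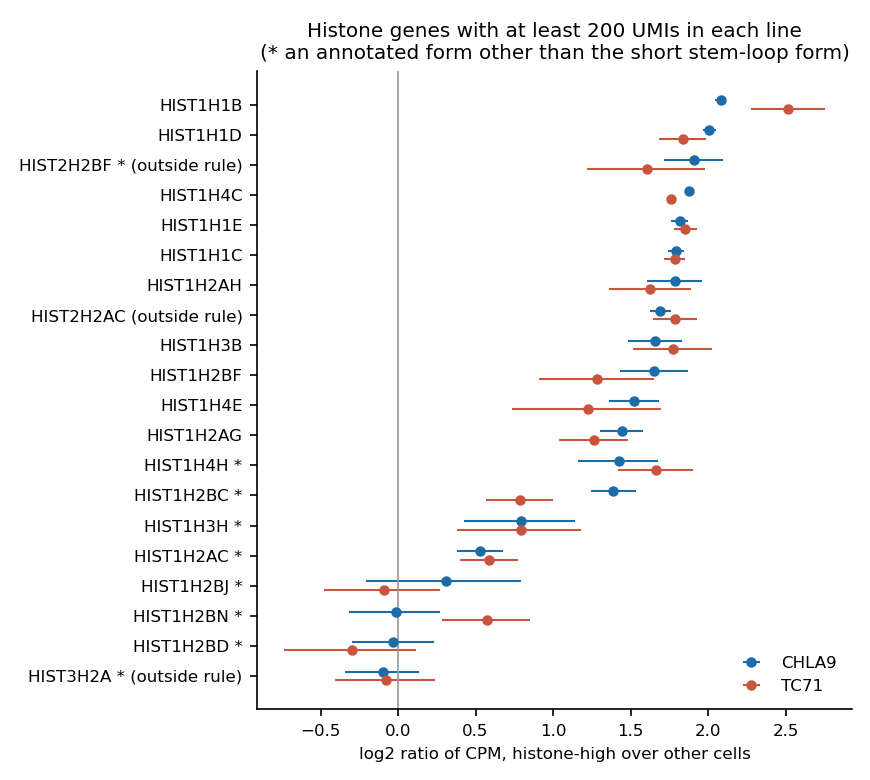
log2 ratio of CPM between histone-high and other cells (x axis) for the histone genes with at least 200 UMIs in each line (y axis), with 95% counting intervals as bars. Asterisks mark genes with an annotated form other than the short stem-loop form, and HIST1H3B had no GENCODE 44 transcript. Genes without an asterisk, HIST1H4C at 1.88 and 1.76 among them, lie to the right of most genes with one, such as HIST1H2BD at -0.03 and -0.29.

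The 16 HIST genes of the HIST2, HIST3 and HIST4 groups took no part in the ranking. Their sum stood at 184 and 65.3 CPM in CHLA9 and at 144 and 57.2 in TC71, a log2 ratio of 1.497 and 1.33. HIST2H2AC, an H2A gene on chromosome 1, was the largest single part of this, with 133 and 41.1 CPM in CHLA9 and 95.5 and 27.6 in TC71. Its ratio was 1.69 (1.62 to 1.76) and 1.79 (1.65 to 1.93). Without it, the sum of the rest had a ratio of 1.09 in CHLA9 and 0.72 in TC71. HIST3H2A, which has an annotated form other than the short one, stood at 9.02 and 9.65 CPM in CHLA9 and at 14.9 and 15.7 in TC71, with ratios of -0.10 (-0.34 to 0.14) and -0.08 (-0.41 to 0.24). HIST2H2BF, which also has other forms, had ratios of 1.91 (1.72 to 2.10) and 1.60 (1.22 to 1.98). HIST3H2BB had 1.36 and -0.31, and HIST4H4 1.24 and 0.57, both with other forms. HIST2H2BE, annotated without the loop, had 0.73 and 0.99. Outside the rule, other annotated forms thus did not always go with small ratios.

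Other rankings of the same cells showed how far the histone genes varied together. When cells were ranked by HIST1H4C alone, the top 10% held 359 of the 452 histone-high cells of CHLA9 (79.4%) and 124 of the 172 of TC71 (72.1%). The H1 genes, which then took no part in the choice, had a summed log2 ratio of 1.475 (1.451 to 1.499) in CHLA9 and 1.18 (1.13 to 1.23) in TC71. When cells were ranked by the H1 genes alone, HIST1H4C had a ratio of 1.46 (1.45 to 1.47) and 1.17 (1.14 to 1.20), and the histone genes outside HIST1H one of 1.54 and 1.42. Ranked by the 16 genes outside HIST1H, the top 10% shared 199 cells (44.03%) with the histone-high cells of CHLA9 and 66 (38.4%) with those of TC71. HIST1H4C was then higher by 1.45 and 1.21 on the log2 scale. HIST1H4C, the H1 genes and the genes outside HIST1H were thus each high in cells chosen by another of these groups, in both libraries, with smaller ratios in TC71. The core genes without HIST1H4C, read together, had the smallest ratios in each of these rankings. They were at 0.89 in CHLA9 and 0.73 in TC71 with cells ranked by HIST1H4C. By the H1 genes they were at 1.22 and 1.11, and by the genes outside HIST1H at 1.06 and 0.93. The H2A, H2B and H3 classes were not read singly in this way.

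The label of S phase held in part. Phases were scored with the 43 S and 54 G2M genes that Seurat uses, none of them a HIST gene, on cells thinned to 5000 UMIs. Of the histone-high cells of CHLA9, 50.4% were placed in S (228 cells, 95% Clopper-Pearson interval 45.7 to 55.1), 46.7% in G2M and 2.88% in G1. The other cells were 33.0% in S (31.5 to 34.4), 39.0% in G2M and 28.0% in G1. In TC71, 56.4% of the histone-high cells were placed in S (97 cells, 48.6 to 63.9), 32.6% in G2M and 11.05% in G1, against 47.0% (44.5 to 49.5), 36.6% and 16.4%. The histone-high cells of CHLA9 thus had few cells in G1 and nearly as many in G2M as in S, while for TC71 the intervals of the share in S overlapped those of the other cells. With full depth and all genes, the TC71 shares in S of histone-high and other cells were 28.5% and 29.1%. At full depth with genes in at least 10 cells they were 51.7% and 48.2%. At 10000 UMIs they were 56.2% and 51.9%, and with another seed 52.9% and 45.6%. The cells are called histone-high cells here, not S-phase cells.

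Seen from the phases, 14.5% of the CHLA9 cells placed in S were histone-high, 11.7% of those in G2M and 1.13% of those in G1. In TC71 the shares were 11.7%, 8.95% and 6.93%, around the 10% that the rule sets. The share in S was highest below the top decile. Over deciles of the cells from the lowest to the highest HIST1H share, it peaked at 58.9% in the seventh decile of CHLA9 and at 71.1% in the sixth decile of TC71. The share in G2M of TC71 was lowest in that same decile, at 16.2%, and came back to 32.6% in the top decile.

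Across the 6616 CHLA9 genes outside HIST with at least 20 CPM over the kept cells, 423 had a log2 ratio of 0.32 or more, that is were at least 25% higher in the histone-high cells (6.39%), and 288 one of -0.32 or less, that is were at least 20% lower (4.35%). Of 5939 such genes in TC71, 321 were higher (5.4%) and 237 lower (3.99%). The counts of higher genes depended on the ranking: with HIST1H4C left out of it they were 644 in CHLA9 and 688 in TC71, and in TC71 they were 199 with cells ranked at 5000 UMIs each and 156 with HIST1H4C alone. "Called" below means past this limit, and the counting interval of each of these genes excluded 0. No test was made, because each line has 1 library. Of the 5396 genes reaching 20 CPM in both lines, 83 were called higher in both, which is 25.9% of the 320 called in CHLA9 and 29.4% of the 282 called in TC71. Lower in both were 53, or 28.3% of 187 and 27.7% of 191. Only 1 gene called higher in CHLA9 was called lower in TC71, and 3 the other way round. Across these genes, which are not independent replicates, the log2 ratios of the lines had a Pearson r of 0.471 and a Spearman rho of 0.442.

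**Figure D3:**
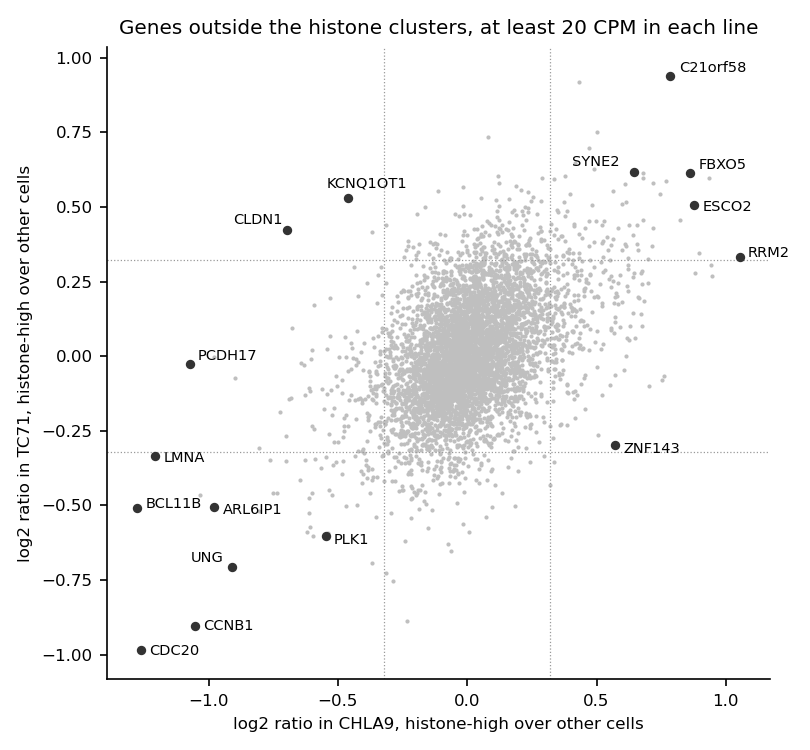
log2 ratio of CPM between histone-high and other cells in CHLA9 (x axis) and TC71 (y axis), 1 point for each of 5396 genes outside HIST with at least 20 CPM in both lines. Dotted lines mark log2 ratios of 0.32 and -0.32. CDC20 and CCNB1 lie at the lower left, at -1.26 and -0.99 and at -1.05 and -0.90, and C21orf58 and FBXO5 at the upper right.

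Among the genes highest in both lines, several act in the stretch from DNA synthesis to entry into mitosis. FBXO5 encodes Emi1, which holds the anaphase-promoting complex inactive through S and G2, and it was at 164 and 90.3 CPM in CHLA9 and at 169 and 110.3 in TC71. Its log2 ratio was 0.86 (0.80 to 0.92) and 0.61 (0.51 to 0.71), and with cells placed in S alone 0.18 and 0.31, under the limit of a call in both lines. CDCA5, the cohesin protector sororin, had ratios of 0.77 and 0.59, and ESCO2, which acetylates cohesin during replication, of 0.88 (0.80 to 0.96) and 0.51 (0.36 to 0.66). The centriole genes CCP110 and STIL had ratios of 0.68 and 0.61, and of 0.72 and 0.58. The condensin subunit NCAPH had 0.61 and 0.52, the mitotic kinesin KIFC1 0.68 and 0.60, and HJURP, the chaperone of the centromeric histone CENPA, 0.75 and 0.54. RBL1, the pocket protein p107, had 0.56 and 0.55. C21orf58, the first of the 12 by the smaller of its ratios, had 0.79 (0.72 to 0.85) and 0.94 (0.78 to 1.09), from 139 and 80.8 CPM in CHLA9 and 67.7 and 35.3 in TC71. SYNE2, a nuclear envelope protein of the nesprin family, had 0.65 and 0.62, and GMEB1 0.61 and 0.58.

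The genes lowest in both lines were led by regulators of mitotic exit and entry. CDC20, the activator of the anaphase-promoting complex, was at 95.8 and 230.0 CPM in CHLA9 and 66.4 and 131 in TC71, a log2 ratio of -1.26 and -0.99. CCNB1, the mitotic cyclin B1, was at 143 and 296 CPM in CHLA9, a ratio of -1.05 (-1.11 to -0.99), and at 135 and 252 in TC71, one of -0.90 (-1.01 to -0.80). CCNB2 had -0.81 and -0.52, the mitotic kinase PLK1 -0.55 and -0.60, and ARL6IP1 -0.98 and -0.51. UNG, the uracil-DNA glycosylase that removes uracil from new DNA, was also low, at 37.2 and 69.9 CPM in CHLA9 and 46.4 and 75.6 in TC71. Its ratio was -0.91 (-1.02 to -0.80) and -0.70 (-0.88 to -0.53). CDCA7 had -0.62 and -0.59, KCNE3, a potassium channel subunit, -0.61 and -0.57, ZMYND19 -0.61 and -0.53, ATF7IP2 -0.60 and -0.60, and NR2C2AP -0.54 and -0.59. BCL11B, a transcription factor, was at 95.7 and 232 CPM in CHLA9, a ratio of -1.28 (-1.35 to -1.21), and at 55.2 and 78.5 in TC71, one of -0.51 (-0.67 to -0.35). With cells placed in S alone the direction turned for 4 of these genes in CHLA9, to 0.44 for CCNB1, 0.33 for CCNB2, 0.51 for PLK1 and 0.21 for ARL6IP1, and for ARL6IP1 also in TC71, to 0.25. CDC20 within S was at -0.07 (-0.22 to 0.06) in CHLA9, an interval that includes 0, and at -0.92 in TC71.

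CDC20 and CCNB1 were among the genes lowest in both lines, and their promoters are shown for the letters known from the cell cycle genes homology region of late cell cycle genes, TTTGAA or TTTAAA. The bases just before the start are from RefSeq, GRCh38.p14 (CDC20 at chr1:43358856-43358980 and CCNB1 at chr5:69167025-69167149, both plus strand), with these letters and CCAAT in capitals, on either strand.
CDC20: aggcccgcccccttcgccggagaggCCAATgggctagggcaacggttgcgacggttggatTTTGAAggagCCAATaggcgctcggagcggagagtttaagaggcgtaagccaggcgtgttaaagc
CCNB1: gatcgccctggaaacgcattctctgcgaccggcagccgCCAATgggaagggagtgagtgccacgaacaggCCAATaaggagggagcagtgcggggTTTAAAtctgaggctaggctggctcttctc
TTTGAA or TTTAAA stood within 100 bases before the start in 9 of 56 promoters of genes called lower in both lines (16.1%) and in 14 of 98 promoters of genes called higher in both (14.3%). The share was 5.21% of the 6408 promoters of genes reaching 20 CPM in both lines and 8.24% of all promoters. CCAAT was in 27 of 56 (48.2%) and 41 of 98 (41.8%), against 34.9%. The letters were thus not particular to the direction of the call.

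The S phase genes were mostly higher in CHLA9 and less so in TC71. In CHLA9, 25 of the 42 that reached 20 CPM were called higher and 3 lower, with a median log2 ratio of 0.46 against -0.00 over all genes. In TC71, 7 of 41 were called higher and 3 lower, with a median of 0.16 against 0.00. Higher in both were RAD51AP1, POLD3, ATAD2, RRM2, EXO1, POLA1 and BRIP1, and lower in both UNG and CDCA7. RRM2, a subunit of ribonucleotide reductase, was at 436 and 210.2 CPM in CHLA9, a ratio of 1.05 (1.02 to 1.09), and at 234 and 186 in TC71, one of 0.33 (0.25 to 0.41). PCNA, the sliding clamp of DNA polymerases, was at 436 and 283 CPM and at 318 and 258, with ratios of 0.62 and 0.30. TYMS, which makes thymidylate, had 0.63 in CHLA9 and 0.05 in TC71. ATAD2, a chromatin protein that binds acetylated histones, was at 541 and 329 CPM and at 286 and 212, with 0.72 and 0.43.

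The groups within DNA replication differed by step in CHLA9, and less so in TC71. Of the genes of origin licensing and S entry, which act before synthesis begins, 4 of 20 were called higher in CHLA9 and none lower, and in TC71 none of 19 was higher and 2 were lower. The median log2 ratio was 0.19 and 0.03. MCM5, a subunit of the replicative helicase, was at 126 and 126 CPM in CHLA9 and at 55.5 and 57.6 in TC71, and CCNE2, the cyclin E2 of S entry, was at 42.6 and 38.2 and at 41.5 and 40.9. MCM10, which acts when the helicase starts, was at 0.30 in CHLA9 and -0.34 in TC71. Of the fork genes, which copy the DNA, 20 of 30 were called higher in CHLA9 and none lower, with a median of 0.39. In TC71, 3 of 29 were higher and 1 lower, with a median of 0.17. POLA1 and POLD3, subunits of DNA polymerases alpha and delta, and WDHD1 were called higher in both lines. CDC45, part of the helicase at the moving fork, was at 102 and 53.1 CPM in CHLA9, a ratio of 0.95, and at 61.8 and 51.3 in TC71, one of 0.27. Of the genes of deoxynucleotide supply, 8 of 10 were higher in CHLA9 and 1 of 10, RRM2, in TC71, with medians of 0.52 and 0.06. Over all genes, 6.39% were called higher in CHLA9 and 5.4% in TC71. With cells placed in S alone, the medians of the licensing genes were -0.08 in CHLA9 and 0.01 in TC71. Those of the fork genes were 0.11 and 0.08, and those of deoxynucleotide supply 0.24 and 0.07.

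Over deciles of the HIST1H share, UNG, CCNE2, RRM2 and FBXO5 were highest at like places in both lines, while other genes differed between the lines. UNG was at 67.8 CPM in the fifth decile of CHLA9, at 89.4 in the sixth and at 37.2 in the top decile, and in TC71 it went from 89.3 to 101 and then to 46.4. CCNE2 had its highest value in the seventh decile, at 60.5 CPM in CHLA9 and 68.4 in TC71, and stood at 42.6 and 41.5 in the top decile. Other genes stood highest in the top decile: RRM2 was at 185 CPM in the sixth and 436 in the top decile of CHLA9, and at 186 and 234 in TC71. FBXO5 went from 19.9 CPM in the first decile to 164 in the top decile of CHLA9 and from 45.3 to 169 in TC71. CDC20 and CCNB1 ended lower, from 323 to 95.8 and from 401 to 143 CPM between the first and the top decile of CHLA9. The fall was not steady there: both were highest in the fifth decile, at 328 and 412 CPM, and fell from the sixth on. In TC71, CCNB1 was lowest in the eighth decile, at 115 CPM, and at 135 in the top decile. CCNA2 was at 95.6 CPM in the first and 145 in the top decile of CHLA9. In TC71 it was at 161 CPM in the first, 86.0 in the sixth and 134 in the top decile. TYMS went from 220 to 485 CPM between the first and the top decile of CHLA9, and from 221 to 235 in TC71.

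**Figure D4:**
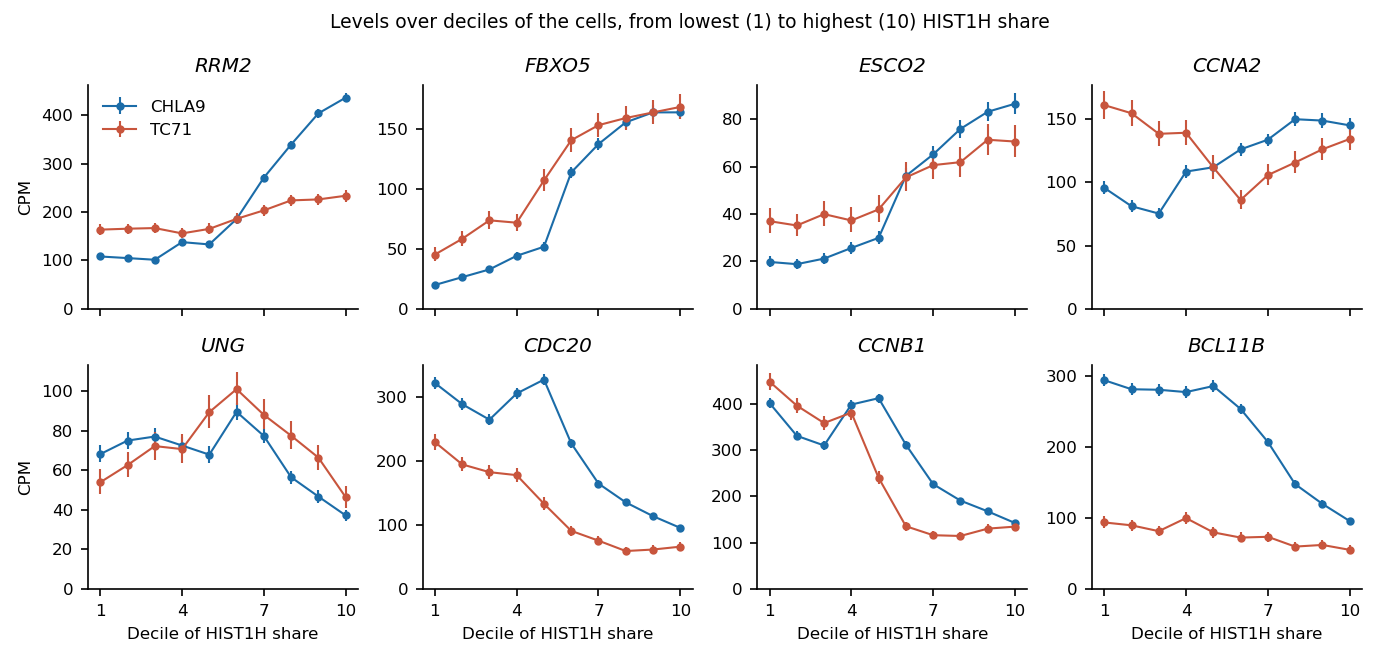
CPM (y axes, from 0) of 8 genes in each decile of the kept cells of CHLA9 and TC71, ordered from the lowest (1) to the highest (10) HIST1H share (x axes), with exact 95% Poisson intervals for counting error as bars. UNG peaks in the sixth decile of both lines, at 89.4 and 101 CPM, while RRM2 reaches 436 CPM in the top decile of CHLA9.

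DNA repair by homologous recombination and the Fanconi anemia pathway, which act on broken or crosslinked DNA and at stalled forks, had many genes called higher in both lines. In CHLA9, 13 of 16 of its genes were called higher and none lower, with a median log2 ratio of 0.50, and in TC71, 7 of 14 were higher and none lower, with a median of 0.31. With cells placed in S alone, 4 of 16 were called higher in CHLA9 and 3 of 14 in TC71. None was lower there, and the medians were 0.08 and 0.22. Over all genes, the shares called higher within S were 5.43% in CHLA9 and 10.4% in TC71. The genes named next were called over all kept cells. Higher in both were FANCI, BRCA1, BRCA2, BRIP1, RAD51AP1 and EXO1. BRCA1 was at 234 and 162 CPM in CHLA9 and at 58.3 and 42.6 in TC71, with ratios of 0.53 and 0.45, and BRCA2 at 86.9 and 67.2 and at 104 and 82.8, with 0.37 and 0.33. Of the genes of the S phase checkpoint, 5 of 11 were higher in CHLA9, with a median of 0.29, and 1 of 10 in TC71, with a median of 0.06. CLSPN, the claspin that passes the signal of ATR on, had 0.53 and 0.28, and TOPBP1, an activator of ATR and the gene called in TC71, 0.29 and 0.39. Within S, 1 of 11 checkpoint genes was higher and 1 lower in CHLA9, with a median of 0.13. In TC71, 1 of 10 was higher there, near the 10.4% of all genes, with a median of 0.01. Of the sister chromatid cohesion genes, 6 of 16 and 5 of 14 were called higher and none lower, with medians of 0.25 and 0.22. SMC1A, a ring subunit of cohesin, was at 407 and 306 CPM in CHLA9 and at 238 and 176 in TC71, with 0.41 and 0.44, and was called in both together with ESCO2 and CDCA5.

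Genes that handle histones had smaller ratios than the histones. Of 24 chaperone genes in CHLA9, 5 were called higher and none lower, with a median log2 ratio of 0.13. Of 22 in TC71 only HJURP was called higher, with a median of 0.09. Over all genes, the shares called higher were 6.39% in CHLA9 and 5.4% in TC71, and those called lower 4.35% and 3.99%. CHAF1A, the large subunit of the assembly factor CAF-1 that loads histones behind the fork, had 0.41 in CHLA9 and 0.08 in TC71, and ASF1B 0.55 and 0.26. NASP, a chaperone of H3 and H4, was at 1279 and 1186 CPM in CHLA9, a ratio of 0.11, and at 619.6 and 620.2 in TC71. Of the genes of histone messenger transcription and processing, 2 of 15 were called higher in CHLA9, the activator NPAT at 0.38 and POU2F1 at 0.38, with a median of 0.05. In TC71 none was higher and 3 of 15 were lower, CSTF2 at -0.39, NCBP2 at -0.39 and E2F1 at -0.35, with a median of 0.09. SLBP, which binds the stem-loops shown above, was at 207 and 182 CPM in CHLA9, a ratio of 0.18 (0.13 to 0.23), and at 119 and 149 in TC71, one of -0.32 (-0.43 to -0.21). It was highest in the seventh decile of CHLA9, at 211 CPM, and in the sixth of TC71, at 169. With cells placed in S alone, 1 of 24 chaperone genes was called higher in CHLA9 and 1 of 22 in TC71. There, CHAF1A was at 0.04, ASF1B at 0.07, NPAT at 0.07 and POU2F1 at 0.39 in CHLA9.

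Of the 11 replication-independent histones, 3 were called higher in CHLA9 and 1 in TC71. The median log2 ratio was 0.12 and 0.11. Again, 6.39% of all genes were called higher in CHLA9 and 5.4% in TC71. H1FX, a linker histone of this group, had a log2 ratio of 0.58 (0.55 to 0.62) in CHLA9 and 0.17 (0.09 to 0.26) in TC71, and H2AFX, the variant phosphorylated at DNA breaks, 0.44 and 0.29. The H3.3 genes H3F3A and H3F3B were nearly level, at 0.06 and 0.11 and at 0.08 and 0.15. H2AFZ was at 0.22 in CHLA9 and -0.07 in TC71, and CENPA at -0.19 and -0.06. Of the genes that maintain chromatin marks, 5 of 15 were higher in CHLA9 and 1, ATAD2, in TC71, with medians of 0.14 and 0.10. DNMT1, which copies DNA methylation, was at 0.39 and 0.22, its cofactor UHRF1 at 0.07 and -0.24, and HELLS, a chromatin remodeller, at 0.57 and 0.25.

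The G2M genes and the genes of mitosis went both ways. The shares over all genes were 6.39% higher and 4.35% lower in CHLA9, and 5.4% and 3.99% in TC71. In CHLA9, 14 of 53 G2M genes were called higher and 8 lower, with a median log2 ratio of 0.08, and in TC71, 7 of 52 higher and 5 lower, with a median of 0.06, which turned to -0.046 with cells ranked at 5000 UMIs each and to -0.052 for the top 20% of cells. NDC80, MKI67, CKAP2L, KIF11, HJURP and ANLN were higher in both, and CCNB2 and CDC20 lower in both. MKI67, the Ki-67 protein of cycling cells, was at 665 and 456 CPM in CHLA9 and at 382 and 298 in TC71, with ratios of 0.54 and 0.36. TOP2A, which untangles DNA, had 0.20 and 0.28. Of the 29 genes of the spindle and mitosis, 6 were higher and 9 lower in CHLA9, and 2 higher and 10 lower in TC71, with medians of -0.06 and -0.10. PLK1, CCNB1, CCNB2, CDC20, PTTG1, CDKN3 and TUBA1C were lower in both. PTTG1, the securin that guards sister chromatids, was at 89.8 and 184 CPM in CHLA9 and at 149 and 206 in TC71, with -1.03 and -0.47, whereas AURKB, the kinase of the chromosomal passenger complex, had 0.68 and 0.24. Of the cyclins, 1 of 10 was higher in CHLA9, CCNF at 0.44, and CCNB1 and CCNB2 were lower. In TC71 none of 8 was higher and 3 were lower, the third being CCNH at -0.42. The medians were -0.07 and -0.01, and CCNA2, the cyclin A2 of S and G2, was at 0.30 and 0.09.

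Among the CDK inhibitors and pocket proteins, 3 of 5 were called higher in CHLA9 and 2 of 6 in TC71. None was lower, and the medians were 0.42 and 0.19. Of all genes, 6.39% were higher and 4.35% lower in CHLA9, and 5.4% and 3.99% in TC71. CDKN1B, the inhibitor p27, was higher in both, at 31.6 and 23.7 CPM and at 46.6 and 29.7, with ratios of 0.42 (0.29 to 0.54) and 0.65 (0.46 to 0.83). Of the immediate early and stress genes, 2 of 7 were higher and 2 lower in CHLA9, the latter MYC at -0.42 and IER2 at -0.42, with a median of -0.29. In TC71 1 of 7 was higher, JUN at 0.44, which was at -0.32 in CHLA9, and the median was -0.07. None of the 82 cytosolic ribosomal protein genes and none of the 13 mitochondrially encoded genes that reached 20 CPM in CHLA9 was called, and none of 83 and 13 in TC71. Of the Ewing sarcoma markers, none of 9 was called higher in either line, 2 were lower in CHLA9, BCL11B and NR0B1, and 1, BCL11B, in TC71, with medians of -0.12 and -0.01. FLI1, an ETS gene that is the common partner of EWSR1, was at -0.04 and -0.02.

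Histone-high cells were then compared with other cells placed in the same phase, a comparison chosen after the values over all cells were seen. Since the S and G2M genes placed the cells of both groups, their values here are a description. Within S, 359 of 6616 CHLA9 genes were called higher (5.43%) and 228 lower (3.45%), and in TC71 619 of 5939 (10.4%) and 307 (5.17%). The S phase genes had a median log2 ratio of 0.10 in CHLA9, with 8 of 42 higher and 7 lower, and of 0.04 in TC71, with 2 of 41 higher and 4 lower. The G2M genes had a median of 0.74 with 42 of 53 higher and none lower in CHLA9, and of 0.39 with 33 of 52 higher and 3 lower in TC71. CCNA2 was at 131 and 75.9 CPM in the S cells of CHLA9 and at 124 and 89.3 in those of TC71, with ratios of 0.79 and 0.48, and KIF11, the motor of spindle assembly, had 0.79 and 0.82. CCNB1 was at 0.44 in CHLA9 and -0.51 in TC71. UNG was low here too, at -1.16 and -0.79. Of the licensing genes, 5 of 20 were lower in CHLA9 and 2 of 19 in TC71, and none was higher.

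Within G2M, 379 genes were higher (5.73%) and 417 lower (6.3%) in CHLA9, and 353 (5.94%) and 458 (7.71%) in TC71. The direction of the lists turned around: the S phase genes had a median log2 ratio of 0.58 in CHLA9, with 36 of 42 higher and 2 lower, and of 0.21 in TC71, with 10 of 41 higher and 5 lower. The spindle genes had medians of -0.49 and -0.25, with none higher and 17 and 10 of 29 lower. FBXO5 had ratios of 1.10 and 0.92, CCNB1 of -1.46 and -0.99, and CDC20 of -1.56 and -0.80. The histone-high cells of each phase thus had higher medians for the genes of the other phase, and the difference was smaller in TC71. C21orf58 was high in both phases of both lines, at 0.49 and 0.75 within S and at 0.73 and 1.02 within G2M, and BCL11B was low, at -0.98 and -0.37 and at -1.30 and -0.68.

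**Figure D5:**
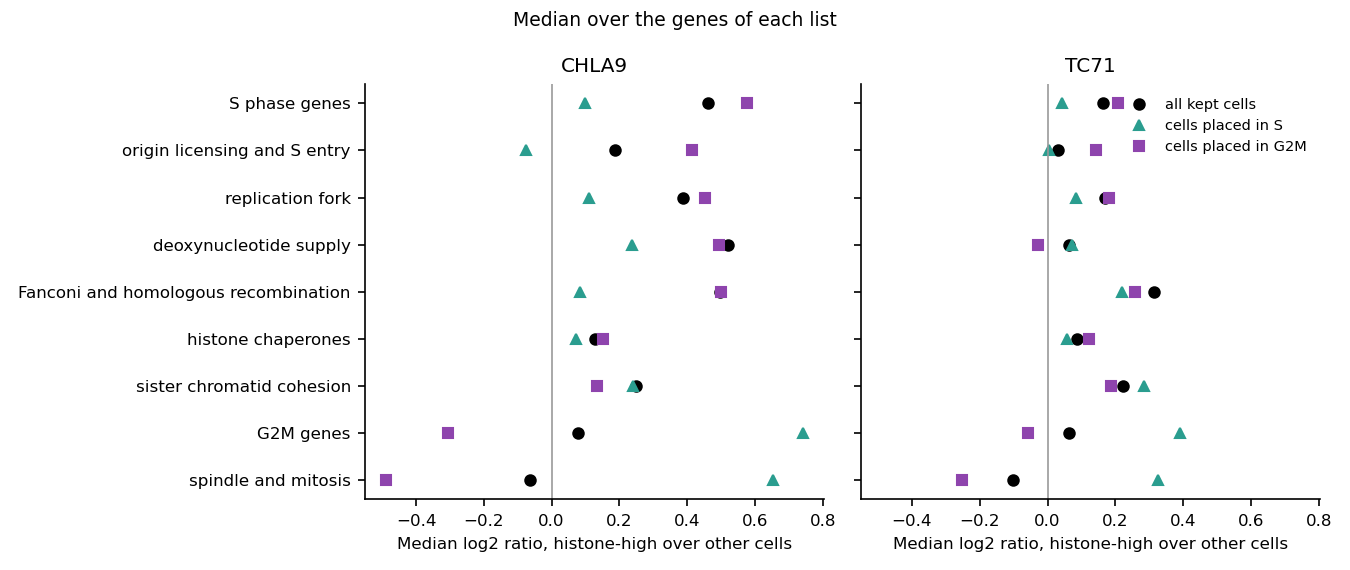
Median log2 ratio of CPM between histone-high and other cells (x axis) over the genes of 9 lists that reached 20 CPM (y axis), in CHLA9 and TC71, with all kept cells, with cells placed in S alone and with cells placed in G2M alone. The G2M and spindle lists lie to the right within S, at 0.74 and 0.65 in CHLA9, and to the left within G2M, at -0.30 and -0.49.

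The histone-high cells differed among themselves in the phase they were placed in. A narrow range of HIST1H values follows from the rule, and S and G2M genes such as TOP2A, UNG and CCNE2 placed the phases, so the values by phase are a description. Cells placed in S and those placed in G2M had nearly the same median HIST1H share, at 0.616% and 0.605% in CHLA9 and 0.447% and 0.455% in TC71. HIST1H4C was at 4433 and 4580.0 CPM in the S and G2M cells of CHLA9 and at 3393 and 3476 in those of TC71. TOP2A was at 712 and 1274 CPM in S and G2M in CHLA9 and at 239 and 478 in TC71, and UNG at 49.5 and 24.4 and at 60.3 and 26.3. CCNE2 was at 62.5 and 22.1 CPM in the S and G2M cells of CHLA9 and at 60.6 and 18.2 in those of TC71. RRM2, again in S and G2M, stood at 474 and 399.5 CPM in CHLA9 and at 252 and 219.8 in TC71. At 5000 UMIs per cell, the histone-high cells held between 13 and 71 UMIs of S phase genes in CHLA9, with a median of 41 against 28 in the other cells, and between 7 and 45 in TC71, with a median of 25 against 23. Their UMIs of spindle genes lay between 24 and 92 in CHLA9 and between 18 and 107 in TC71, with medians of 45.5 and 37. The 13 cells of CHLA9 placed in G1 had a median HIST1H share of 0.636%, and the 19 of TC71 0.452%.

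Some genes separated the lines. CLDN1, a tight junction protein, was at 79.1 and 128 CPM in CHLA9, a log2 ratio of -0.70 (-0.77 to -0.62), and at 75.3 and 56.2 in TC71, one of 0.42 (0.28 to 0.56). The antisense transcript KCNQ1OT1 had -0.46 (-0.53 to -0.40) and 0.53 (0.43 to 0.63). It overlaps KCNQ1, and whether the counting kept the strands apart is not given in the sources used here. The protocadherin PCDH17 was at 45.7 and 96.1 CPM in CHLA9, a ratio of -1.07, and at 42.3 and 43.1 in TC71, one of -0.03, and SPTBN1, a spectrin, had -0.98 and -0.00. LMNA, which encodes lamins A and C, was at 129.6 and 299 CPM in CHLA9 and at 81.6 and 103 in TC71, with -1.21 (-1.27 to -1.15) and -0.33 (-0.47 to -0.20), so it was called lower in both. The largest differences in the other direction were those of ZNF143, at 0.57 and -0.30, GABPB1, at 0.75 and -0.08, IMPA2, at 0.76 and -0.07, CDKN2C, the inhibitor p18, at 0.70 and -0.10, and FAM111B, at 0.51 and -0.27. With 1 library per line these differences were not tested.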

How the data were processed

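The authors deposited raw UMI counts per gene and barcode for the libraries of CHLA9 and TC71, made per the labels with Cell Ranger 3.1.0 on hg38. How reads were filtered or strands treated is not given in the sources used here. Other lines and tumours of the study are not analysed here. The members and the gene lists were chosen with earlier results of these data known, so nothing here is an independent test.

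Counts of the histone-high and the other kept cells were summed per library and scaled to CPM over genes not starting with HIST. Log2 ratios have exact conditional binomial intervals, CPM exact Poisson intervals and shares Clopper-Pearson intervals, all at 95%, for counting error only. Each line has 1 library, so no test was made. A gene with at least 20 CPM over the kept cells was called at a log2 ratio of 0.32 or more, or -0.32 or less. Phases came from CellCycleScoring of Seurat 5.3.0, per library, on cells thinned to 5000 UMIs and genes in at least 10 cells. Doublets were not removed. Median kept depth was 34656 UMIs in CHLA9 and 33370 in TC71. Named genes are the 12 highest and 12 lowest in both lines, the 5 per direction that differ most between lines, the 2 highest and 2 lowest of each of 18 gene lists, the genes of the histone lists and the 10 HIST genes with most UMIs. Of the genes that this rule names, 1 is not reported here. Genes named beyond this rule were chosen after their values were seen. Alternatives changed the ranking, the share of cells taken, the limits on CPM, fold, depth and mitochondrial UMIs, and the phase scoring. Promoters are from RefSeq (GRCh38.p14) and histone transcripts from GENCODE 44, matched by gene identifier or symbol. Promoters were found for 66 of the 83 genes higher and 42 of the 53 lower in both lines. Scripts ran in Python 3.11.15 (numpy 2.4.6, scipy 1.17.1, pandas 2.3.3, matplotlib 3.10.9) and R 4.3.3 and were tested on simulated data.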

Additional observations from a re-analysis of the deposited data

Results flagged for a closer look

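Among the genes named by rule, 9 had log2 ratios of histone-high over other cells on opposite sides of 0 in CHLA9 and TC71. Neither counting interval of these genes included 0. Genes named beyond the naming rule, such as JUN and MCM10, were not counted here. With 1 library each, these differences were not tested. Lower in CHLA9 and higher in TC71 were CLDN1 at -0.70 and 0.42, KCNQ1OT1 at -0.46 and 0.53, CD99 at -0.064 and 0.074, and the histone chaperone SET at -0.056 and 0.044. Higher in CHLA9 and lower in TC71 were ZNF143 at 0.57 and -0.30, FAM111B at 0.51 and -0.27, the histone variant H2AFZ at 0.22 and -0.068, SLBP at 0.18 and -0.32, and UHRF1 at 0.069 and -0.24. The ratios of CD99 and SET lie between -0.32 and 0.32 in both lines.

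Barcodes with under 5000 UMIs, which entered no comparison, also held HIST1H transcripts. In CHLA9, 277 such barcodes had 0.0406% of their UMIs in HIST1H genes (Clopper-Pearson interval 0.0361 to 0.0456) against 0.221% over the kept cells, whose median below the top 10% was 0.0455%. In TC71, 5869 such barcodes had 0.0781% (0.0763 to 0.0799) against 0.177%, with a median of 0.0748% below the top 10%. The barcode values are pooled over UMIs, whereas these medians are over single cells, so the 2 are unlike measures. Pooled over the other kept cells, HIST1H genes stood at 1748 CPM in CHLA9 and 1436 in TC71. Both barcode values lay below these pooled levels.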

How the results depend on the processing

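No paired analysis was possible because CHLA9 and TC71 gave 1 library apiece and nothing was tested. Of 164 alternative values of the main counts, medians and shares, 116 stayed close to the reported value and 48 moved. At 1.5-fold, 78 genes were higher and 59 lower in CHLA9 and 21 and 21 in TC71, and at 2-fold, 2 and 6 and 0 and 1. With at least 10 CPM, 501 were lower in CHLA9, and 662 higher and 439 lower in TC71. With at least 50 CPM the counts were 179 and 112 in CHLA9 and 81 and 105 in TC71. With no minimum beyond 1 UMI they were 3516 and 3120 and 3770 and 2269. Ranking at 5000 UMIs per cell gave a log2 ratio of the histones outside HIST1H of 1.35 and 1.12, 199 higher genes in TC71 and a median of its G2M genes of -0.046, so this small median changed sign. The top 20% gave 183 higher and 150 lower genes and a G2M median of -0.052 in TC71, and the top 5% 405 lower genes and 1.23 for the histones outside HIST1H. At most 10% mitochondrial UMIs gave 494 higher genes in TC71. Ranking by HIST1H4C alone gave 1.27 and 1.07 for the histones outside HIST1H, an S phase median of 0.33 and 44.7% of cells in S in CHLA9, and 156 higher genes in TC71. Ranking without HIST1H4C gave 644 and 688 higher genes, S phase medians of 0.60 and 0.27, and 65.5% and 65.1% of cells in S. Scoring TC71 at full depth with all genes gave 28.5% in S. Cells placed in S only, with the 20 CPM minimum taken over those cells rather than over all kept cells as in the report, gave 1.03 and 1.05 for the histones outside HIST1H, G2M medians of 0.73 and 0.36, S phase medians of 0.098 and 0.063, and 578 higher genes in TC71. There, ARL6IP1 turned to 0.21 in CHLA9 and 0.25 in TC71, and in CHLA9 CCNB1 turned to 0.44, CCNB2 to 0.33, PLK1 to 0.51, FAM111B to -0.15 and MCM4 to -0.044. Of 3216 alternative ratios of single genes, 2573 stayed close, 636 moved and 7 reversed. The cause of these shifts was not tested. Depth limits genes under 20 CPM, and no setting replaces a second library.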

Other observations

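The core histone genes of the HIST1H group without HIST1H4C gave a ranking of their own. Their top 10% of cells held 185 of the histone-high cells of CHLA9 (40.9%) and 58 of those of TC71 (33.7%). In these cells the H1 genes, which took no part in that ranking, had a log2 ratio of 1.83 and 1.58 against the rest, and HIST1H4C of 1.30 and 0.88.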
